A study of Mus musculus with 9 samples.

Results

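Transcription of 10 genes of JAK-STAT signalling and its feedback was followed by nascent RNA in mouse CD8+ T cells, lymphocytes that kill infected and tumour cells. They were chosen by symbol and were the SOCS family genes Socs1, Socs2, Socs3 and Cish, the transcription factor genes Stat3, Stat4, Stat5a and Stat5b, the kinase gene Jak1 and the STAT5 target gene Pim1, 10 of 37022 genes with a row in the deposited tables. The series compared cells under acute stimulation (Acute), under chronic stimulation (Chronic) and under chronic stimulation together with MEK inhibition (ChronicMEKi, called MEK-inhibited here), with 3 libraries a group. MEK is the kinase that activates ERK. Per the labels' protocols, all 9 libraries came from cells that took up 5-ethynyl uridine (0.2 mM, 30 minutes), which enters newly made RNA and lets it be tagged with biotin and pulled down for sequencing. An actinomycin D control named in the protocol was not analysed here. The labels give no strain, age, sex, duration or manner of stimulation and no name or dose of the inhibitor, and nothing says that the 3 libraries of a group came from separate animals, so p-values measure the spread between these libraries.

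Cytokines such as interleukin-2 and interleukin-7 bind receptor chains that carry Janus kinases (JAKs), which phosphorylate STAT transcription factors. In T cells, STAT5A and STAT5B carry the interleukin-2 and interleukin-7 signal, STAT4 the interleukin-12 signal and STAT3 that of interleukin-6, interleukin-10 and interleukin-21. Activated STAT5 switches on Cish and the SOCS genes, whose proteins bind receptors or JAKs and dampen the signal that made them, and Pim1, a kinase that promotes survival and growth. Nascent RNA reports transcription in the labelling window and not the amount of protein or of phosphorylated STAT.

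STAT dimers bind the palindrome TTCNNNGAA, which is its own reverse complement. RefSeq promoter windows (GRCm38.p6, the 250 bases before an annotated start) were matched for 9 of the 10 genes, with 13 windows in all. No window was used for Socs2. The palindrome was found in 1 window, that of Socs3, and in 7.02% of all 32851 RefSeq windows. A window ends at a RefSeq start, which can differ from the start of the transcript used. That of Cish ends at 107296658, before the start of the transcript used, 107296710, and before later starts given below. The bases in between were not searched. The Socs3 window, shown because it is the 1 member window with the palindrome, lies at chr11:117969367-117969616 on the minus strand. It is written 5′ to 3′ with the match in capitals, 154 bases before the RefSeq start at 117969366. The coding transcript used for the values below starts farther in, at 117969186, and an exon of a transcript of Socs3 without coding annotation overlaps the window outside the match.
Socs3: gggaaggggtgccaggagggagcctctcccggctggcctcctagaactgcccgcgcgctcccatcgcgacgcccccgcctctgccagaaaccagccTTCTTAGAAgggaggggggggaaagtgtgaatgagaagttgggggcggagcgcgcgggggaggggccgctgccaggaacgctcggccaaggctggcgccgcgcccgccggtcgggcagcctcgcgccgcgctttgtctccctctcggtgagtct
The match is a description of these letters and not a binding site measured here.

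The authors deposited a signal for each transcript, in 1 table read here as the gene body (GB) and 1 read here as the pause region (PR), the stretch near the start of transcription. For each gene the transcript with the largest mean gene-body signal was used. Gene-body signal summed to between 48601757 and 52216192 per library, while depth in reads is unknown. A ribosomal RNA-like locus took 19.1% to 22.3% of it in acute, 34.2% to 40.6% in chronic and 29.0% to 36.1% in MEK-inhibited libraries. Values below were scaled by a trimmed mean of log ratios between libraries, so every direction is relative to the typical gene. Scaling to library totals moved the median of all genes by -0.49 between chronic and acute, by 0.11 between MEK-inhibited and chronic and by -0.38 between MEK-inhibited and acute libraries. Differences are on the log2(scaled signal + 5) scale, and a gene was called at a limma adjusted p under 0.05 over all 15942 genes tested in the gene body. All 8 genes listed as CD8 T cell markers were detected. They were Cd8a and Cd8b1 and the general T cell genes Cd3d, Cd3e, Cd3g, Cd247, Cd2 and Cd5. Their summed gene-body signal ranged from 31224 to 35753 in acute, from 21002 to 24977 in chronic and from 26969 to 29695 in MEK-inhibited libraries. The summed signal of 5 B cell markers was 534 to 565, 189 to 219 and 160.4 to 435 in the same order, that of 6 myeloid markers 226 to 239.9, 156 to 226 and 154 to 323. That of 3 natural killer cell markers was 51.8 to 191, 173 to 177 and 79.3 to 83.2, and that of 4 dendritic cell markers 206 to 281, 312 to 342 and 158 to 230.0. That of 2 CD4 T cell markers was 1040.2 to 1367, 1054 to 1383 and 1729 to 2016, so that the MEK-inhibited libraries lay above the others. In that pair Zbtb7b was called higher with MEK inhibition than in chronic (0.82) and acute (1.17) libraries, and Cd4 lower (-0.91 and -1.89). Among the other lists, Cd79a of B cells was called lower in chronic than in acute libraries (106 ± 46.1 against 335 ± 42.3) and Klre1 of natural killer cells lower with MEK inhibition than in chronic ones (40.3 ± 12.9 against 149 ± 7.68). Group means of Ms4a1, Lyz2, Cd14, Ncr1 and Siglech reached at most 15.7 (Ms4a1 in acute libraries), and Ncr1 was listed at 0 in all MEK-inhibited libraries. The part of other cells in the results was not tested, and in bulk RNA fewer cells of a type and less RNA per cell cannot be told apart.

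Between chronic and acute stimulation, 4 of the 10 genes were called in the gene body, all lower under chronic stimulation, against 33.9% of all genes called, 18.0% higher and 15.9% lower. With values scaled to library totals 9 were called, all lower, against 49.8% of all genes called in either direction. The 4 were Socs2, Stat4, Pim1 and Jak1, which fell to between 0.538 and 0.677 of their acute level. The median difference over the 10 genes was -0.28, and over all genes it was -0.02. Cish, Socs1, Socs3, Stat3, Stat5a and Stat5b were not called.

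With MEK inhibition under chronic stimulation, 5 of the 10 genes were called, all higher, against 17.6% of all genes called, 9.93% higher and 7.65% lower. Pim1 rose 1.78-fold, Socs2 1.60-fold and Socs3 1.59-fold, while Stat3 rose 1.32-fold and Stat5b 1.25-fold. Stat4 and Jak1, which were lower under chronic stimulation, differed by -0.12 and -0.01 and were not called. The median difference was 0.32 over the 10 genes and 0.04 over all genes.

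Between MEK-inhibited and acute libraries, 3 of the 10 genes were called, against 25.8% of all genes, 14.4% higher and 11.5% lower. Stat4 and Jak1 were lower and Stat3 was higher in the MEK-inhibited libraries. With library totals 0 were called higher and 5 lower, against 37.1% of all genes called. The 3 comparisons share their libraries, so the differences of a gene in them are not independent of each other.

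**Figure D1:**
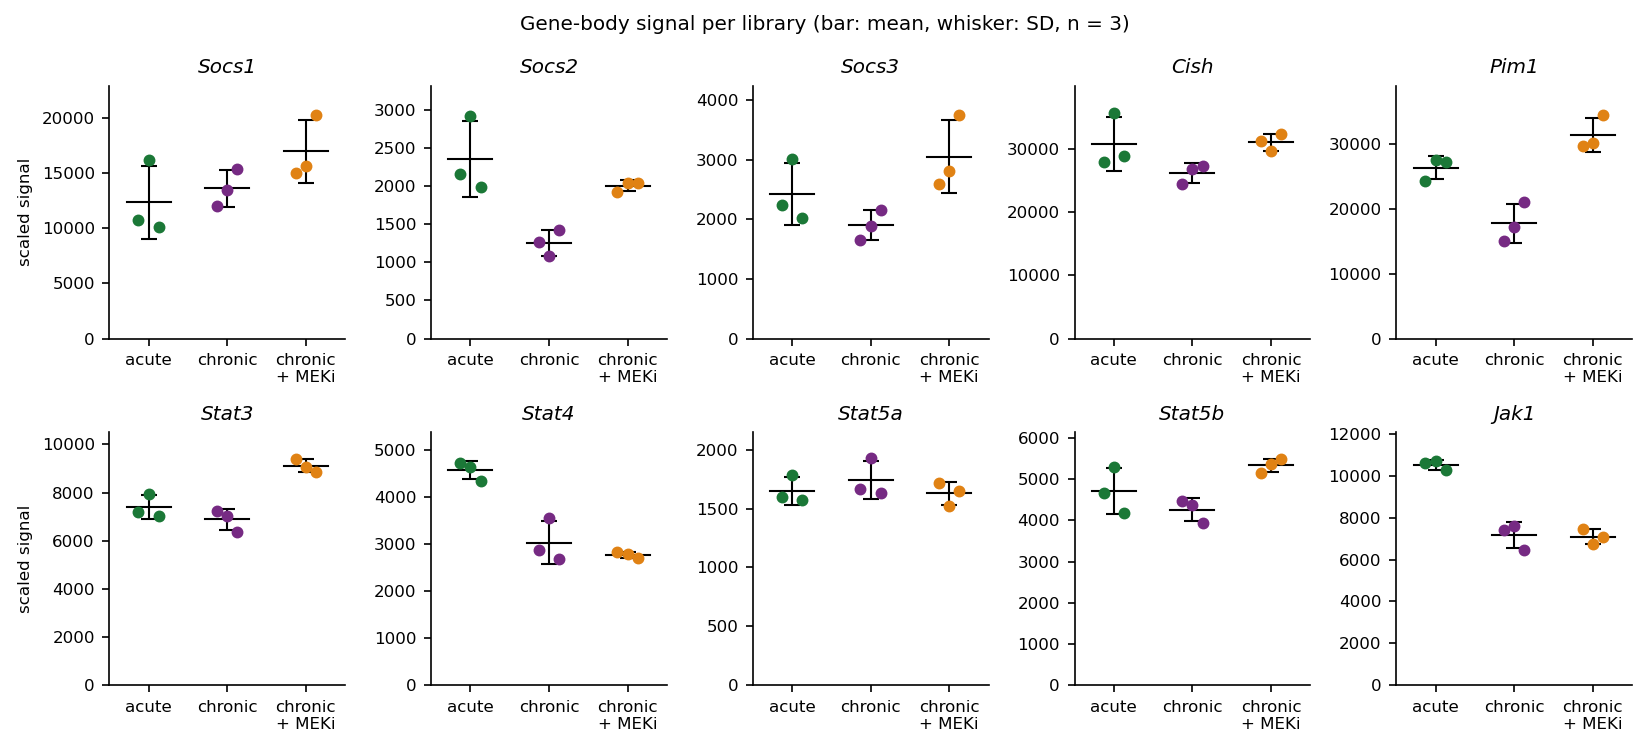
Scaled gene-body signal (vertical axis, from 0) of the 10 genes in each library, with 3 points a group, the mean as a bar and the SD as a whisker. For Stat4 and Jak1 the chronic and the MEK-inhibited libraries sit together below the acute ones, while for Pim1 and Socs2 the chronic libraries alone sit lowest.

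**Figure D2:**
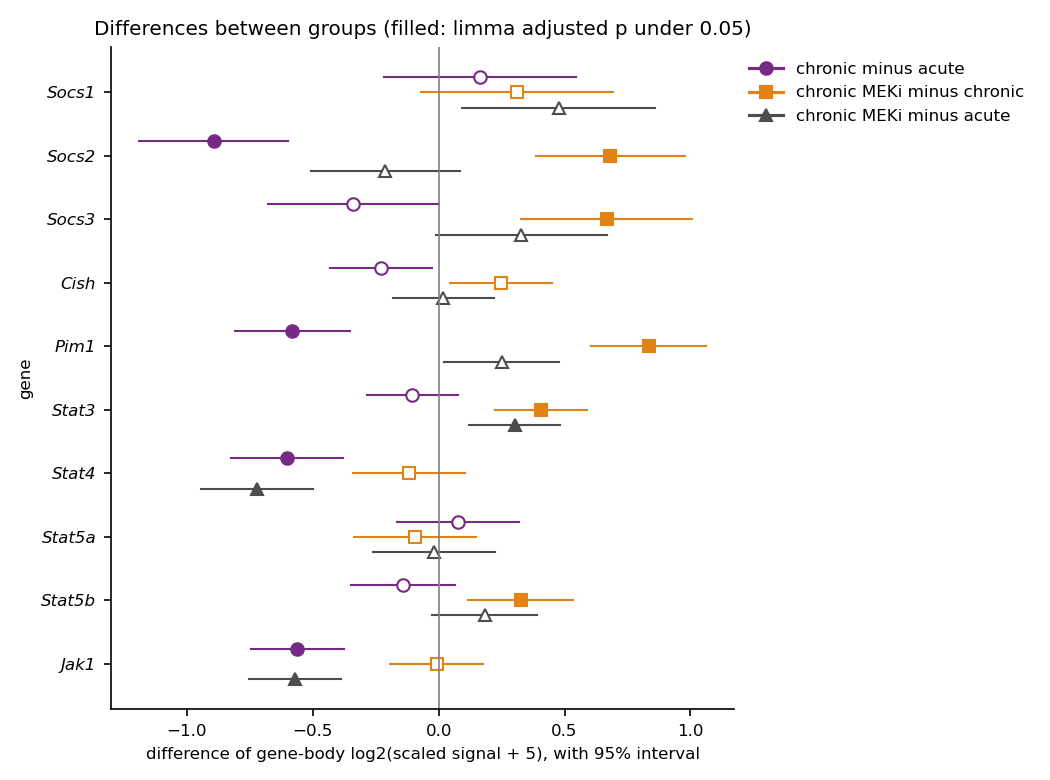
Difference of gene-body log2(scaled signal + 5) between groups (horizontal axis) for the 10 genes, with 95% intervals. Filled symbols mark limma adjusted p-values under 0.05, of which 4 are in the comparison of chronic with acute, 5 in that of MEK-inhibited with chronic and 3 in that of MEK-inhibited with acute libraries.

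Levels of different genes were compared per kilobase of the annotated span of the transcript used. Spans ran from 3.1 kilobases (Socs3) to 6.1 (Cish) for Cish, Pim1 and the Socs genes. For the STAT genes and Jak1 they ran from 25.8 (Stat5a) to 120.0 (Stat4). The counted regions are not given, so an effect of span and a difference in transcription cannot be told apart between these sets of genes. In acute libraries Cish (5068 ± 702 scaled gene-body signal per kilobase, SD, n = 3), Pim1 (4910.0 ± 329) and Socs1 (3746 ± 1002) stood highest, and Socs3 (782 ± 167) and Socs2 (439 ± 93.1) followed. Stat3 (136 ± 9.0), Jak1 (93.4 ± 2.04), Stat5b (67.5 ± 8.03), Stat5a (64.0 ± 4.59) and Stat4 (38.1 ± 1.66) were lower. Cish and Pim1 did not differ beyond their spread, nor did Stat5b and Stat5a. Under chronic stimulation Cish (4302 ± 258) and Socs1 (4128 ± 506) lay within their spread of each other, and the mean of Pim1 (3306 ± 569) was lower. With MEK inhibition the highest means were those of Pim1 (5848 ± 487), Socs1 (5144 ± 870) and Cish (5103 ± 217), where Socs1 lay within its spread of both Pim1 and Cish. Stat4 was the lowest in both (25.2 ± 3.83 and 23.1 ± 0.561). In chronic libraries the mean of Jak1 (63.4 ± 5.51) lay between those of Stat5a (67.5 ± 6.36) and Stat5b (60.9 ± 4.02), within its spread of both. These SDs are over libraries. The genes were measured in the same libraries, and their per-kilobase differences within a library were not tested.

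Jak1 encodes the Janus kinase that pairs with the interleukin-2 receptor beta chain and with interferon receptors. The transcript used spans chr4:101152367-101265282 on the minus strand, and the gene overlaps others on both strands by at most 172 bases. Gene-body signal of Jak1 was 10631, 10719 and 10284 in the acute, 7413, 7615 and 6450 in the chronic and 7482, 6765 and 7071 in the MEK-inhibited libraries. The 3 acute libraries lay above all 6 others, and the other groups overlapped. Jak1 fell by 0.56 on the log2 scale under chronic stimulation (SE 0.09, adjusted p = 5.89e-05) and was lower by 0.57 (SE 0.09, adjusted p = 7.70e-05) in MEK-inhibited than in acute libraries. The difference between MEK-inhibited and chronic libraries was -0.01, with a 95% interval from -0.19 to 0.18.

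Stat4 (chr1:51987148-52107189, plus strand) encodes the factor that drives the response to interleukin-12. Its signal was 4726, 4648 and 4348 in acute, 2865, 3548 and 2673 in chronic and 2828, 2784 and 2696 in MEK-inhibited libraries. All acute libraries lay above all others. Stat4 fell by 0.60 under chronic stimulation (SE 0.11, adjusted p = 0.000199) and was lower by 0.72 in MEK-inhibited than in acute libraries (SE 0.11, adjusted p = 4.60e-05), and the difference between MEK-inhibited and chronic libraries was -0.12 (95% interval -0.34 to 0.10). The Stat4 span overlaps other annotated genes on both strands, by up to 29929 bases, and the authors' use of strand is not given in the sources used here.

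Stat3 (chr11:100885098-100939404, minus strand) had 7197, 7954 and 7041 in acute, 7235, 7035 and 6371 in chronic and 9391, 9075 and 8854 in MEK-inhibited libraries. The MEK-inhibited libraries lay above both other groups, which overlapped. Stat3 rose by 0.41 with MEK inhibition relative to chronic (SE 0.09, adjusted p = 0.0024) and was higher by 0.30 than in acute libraries (SE 0.09, adjusted p = 0.0146). The second call was lost when acute replicate 1 or 3 or MEK-inhibited replicate 1 was left out (differences 0.22, 0.21 and 0.23), and the difference was -0.08 with library totals and -0.04 on the deposited scale. It was also lost with totals that omit the ribosomal RNA-like rows (0.13, limma adjusted p = 0.319) and with the trimmed mean over all genes with signal (0.24, adjusted p = 0.196). Limma without trend or robust moderation lost it too (adjusted p = 0.0700). The first call was lost, at 0.34 (adjusted p = 0.0834), when the trimmed mean was taken over all genes with signal. Between chronic and acute Stat3 differed by -0.10 and was not called, but it was called lower with library totals (-0.59, adjusted p = 0.000554), on the deposited scale (-0.58) and with totals that omit the ribosomal RNA-like rows (-0.26, adjusted p = 0.0320).

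Stat5a and Stat5b encode near-identical proteins and lie beside Stat3 on chromosome 11. How reads common to both genes were assigned is not given in the sources used here. Stat5a (chr11:100859351-100885169, plus strand) overlaps the end of Stat3 by 72 bases. Its signal was 1598, 1789 and 1572 in acute, 1667, 1933 and 1632 in chronic and 1719.8, 1526 and 1649 in MEK-inhibited libraries. The 3 groups overlapped, with differences of 0.08 (95% interval -0.17 to 0.32), -0.09 (-0.34 to 0.15) and -0.02 (-0.26 to 0.22) for chronic minus acute, MEK-inhibited minus chronic and MEK-inhibited minus acute. None of these was called. With library totals Stat5a was called lower than in acute libraries both under chronic stimulation (-0.41, adjusted p = 0.0188) and with MEK inhibition (-0.40, adjusted p = 0.0290), and on the deposited scale under chronic stimulation (-0.40, adjusted p = 0.0240).

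Stat5b (chr11:100780731-100850724, minus strand) had 4669, 5309 and 4189 in acute, 4465, 4382 and 3941 in chronic and 5155, 5369 and 5479.5 in MEK-inhibited libraries. The MEK-inhibited libraries lay above all chronic ones and overlapped the acute ones. Stat5b rose by 0.32 relative to chronic (SE 0.10, adjusted p = 0.0278). Without acute replicate 1 or 3, chronic replicate 2 or 3, or any 1 of the MEK-inhibited replicates, the call was lost, with adjusted p-values from 0.0508 to 0.119 and differences from 0.27 to 0.34. It was also lost with the trimmed mean over all genes with signal (0.25, limma adjusted p = 0.247). Limma without trend or robust moderation (adjusted p = 0.117) and limma without a signal filter (adjusted p = 0.0573) lost it too. Between chronic and acute Stat5b differed by -0.14 and was not called, but it was called lower with library totals (-0.63, adjusted p = 0.000307), on the deposited scale (-0.62) and with totals that omit the ribosomal RNA-like rows (-0.30, adjusted p = 0.0225).

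Cish encodes the SOCS protein most closely tied to STAT5 activity, and its gene lies at chr9:107296710-107302784 on the plus strand, where predicted genes of the other strand overlap it. Its signal was 27867, 35683 and 28818 in acute, 24336, 26846 and 27225 in chronic and 31166, 29608 and 32228 in MEK-inhibited libraries. All chronic libraries lay below all others, yet the differences of -0.23 from acute (SE 0.10, adjusted p = 0.0732) and 0.25 for MEK-inhibited minus chronic (SE 0.10, adjusted p = 0.088) missed the threshold. The difference from acute passed it without acute replicate 1 (-0.30, adjusted p = 0.0453) and without chronic replicate 3 (-0.26, adjusted p = 0.0470). Scaling moved it more, to -0.72 with library totals, -0.70 on the deposited scale and -0.39 with totals that omit the ribosomal RNA-like rows, each called (adjusted p = 2.7e-05, 3.7e-05 and 0.00183). The difference between MEK-inhibited and chronic libraries was called with library totals (0.35, adjusted p = 0.0471) and on the deposited scale (0.38, adjusted p = 0.0313), and that between MEK-inhibited and acute libraries, 0.02, became -0.37 with library totals (adjusted p = 0.0192).

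Socs1, which encodes a direct inhibitor of JAK kinase activity, occupies chr16:10782243-10785536 on the minus strand and overlaps no other gene. Its signal was 10749, 16133 and 10136 in acute, 12013, 13438 and 15338 in chronic and 14994, 15607 and 20234 in MEK-inhibited libraries. Acute replicate 2 stood above the other acute libraries, and each pair of groups overlapped. The differences of 0.16 for chronic minus acute, 0.31 for MEK-inhibited minus chronic and 0.48 for MEK-inhibited minus acute (SE 0.17 each) had adjusted p-values of 0.503, 0.276 and 0.0673. Without acute replicate 2 Socs1 was called higher than in acute libraries both under chronic stimulation (0.38, adjusted p = 0.0362) and with MEK inhibition (0.63, adjusted p = 0.00227). With library totals the difference between chronic and acute was -0.33, and that between MEK-inhibited and chronic was called (0.42, adjusted p = 0.0372), as it was on the deposited scale (0.44, adjusted p = 0.0276).

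Socs2 (chr10:95411490-95416857, minus strand), whose product also restrains growth hormone receptor signalling, had 2155, 2924 and 1986 in acute, 1261, 1082 and 1419.7 in chronic and 1921, 2049 and 2042 in MEK-inhibited libraries. All chronic libraries lay below all others. Socs2 fell by 0.89 under chronic stimulation (SE 0.14, adjusted p = 6.56e-05) and rose by 0.68 with MEK inhibition relative to chronic (SE 0.14, adjusted p = 0.00182). The MEK-inhibited and acute libraries overlapped, with a difference of -0.21 (95% interval -0.51 to 0.08). Socs2 was called lower in MEK-inhibited than in acute libraries with library totals (-0.60, adjusted p = 0.00273), on the deposited scale (-0.55, adjusted p = 0.00571) and with totals that omit the ribosomal RNA-like rows (-0.38, adjusted p = 0.0397).

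Socs3, which encodes the inhibitor that docks on gp130 receptors, lies at chr11:117966079-117969186 on the minus strand. It had 2247, 3014 and 2027 in acute, 1659, 1890.3 and 2160.5 in chronic and 2586, 2809 and 3744 in MEK-inhibited libraries. The MEK-inhibited libraries lay above all chronic ones, and both groups overlapped the acute one. Socs3 rose by 0.67 with MEK inhibition relative to chronic (SE 0.16, adjusted p = 0.00732). The difference between chronic and acute was -0.34 (SE 0.16, adjusted p = 0.116), and it was called with library totals (-0.83, adjusted p = 3.6e-05), on the deposited scale (-0.81, adjusted p = 5.2e-05) and with totals that omit the ribosomal RNA-like rows (-0.50, adjusted p = 0.00885). Limma without an intensity trend or robust moderation gave the rise an adjusted p of 0.0706.

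Pim1 (chr17:29490753-29496112, plus strand) had 24298, 27549 and 27106 in acute, 14946, 17229.6 and 20988 in chronic and 29655, 30027 and 34350 in MEK-inhibited libraries. The 3 groups did not overlap. Pim1 fell by 0.58 under chronic stimulation (SE 0.11, adjusted p = 0.00037) and rose by 0.83 with MEK inhibition relative to chronic (SE 0.11, adjusted p = 1.82e-05). MEK-inhibited libraries exceeded acute ones by 0.25 (SE 0.11), which missed the threshold (adjusted p = 0.102) and was -0.13 with library totals. Gm26885, a gene of the other strand, overlaps Pim1 by 1173 bases, and how strand was used in counting is not known here.

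Ratios of 2 members within a library do not change with the library's scale, apart from the pseudocount, and are given as a description of pairs chosen after their values were seen. The log2 ratio of Stat3 to Stat4 was 0.61 to 0.77 in acute, 0.99 to 1.34 in chronic and 1.70 to 1.73 in MEK-inhibited libraries, with no overlap. The log2 ratio of Socs3 to Socs1 was -2.42 to -2.26, -2.85 to -2.82 and -2.53 to -2.43 in the same order, again without overlap. The log2 ratio of Stat5b to Stat5a was 1.41 to 1.57 in acute, 1.18 to 1.42 in chronic and 1.58 to 1.81 in MEK-inhibited libraries, where the acute and chronic ranges overlapped.

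In the pause region 8 of the 10 genes could be tested, among 7678 genes. At the start of the transcript used, Stat4 was listed at 0 in every library and Stat5a reached at most 3.83. Between chronic and acute stimulation, 2 of the 8 were called, both lower, against 10.7% of all genes, 5.37% higher and 5.35% lower. Pause-region signal of Socs2 was 267, 386 and 383 in acute, 116, 66.5 and 127 in chronic and 179.6, 295 and 302 in MEK-inhibited libraries. That of Pim1 was 3579, 3629.9 and 2898, then 1799.8, 1909 and 1995, then 4019.7, 4348 and 4005. For both genes every chronic library lay below every other library.

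Socs2 fell by 1.73 in the pause region (SE 0.28, adjusted p = 8.53e-05) and Pim1 by 0.82 (SE 0.15, adjusted p = 0.000486). With MEK inhibition relative to chronic, 2 of the 8 genes were called, both higher, against 3.0% of all genes, 1.56% higher and 1.43% lower. Pim1 rose by 1.12 (SE 0.15, adjusted p = 2.11e-05) and Socs2 by 1.30 (SE 0.28, adjusted p = 0.0070). Limma without trend or robust moderation left 1 call in each of these comparisons, Socs2 in the first and Pim1 in the second. It called 7.24% and 1.43% of all genes. The rise of Socs2 was no longer called without chronic replicate 2 (1.03, adjusted p = 0.0597) or MEK-inhibited replicate 2 (1.20, adjusted p = 0.0619) or 3 (1.18, adjusted p = 0.0701). For MEK-inhibited minus chronic the other 6 genes were not called, among them Socs1 (0.48), Stat3 (0.94) and Stat5b (1.18), with limma adjusted p-values of 0.200, 0.156 and 0.167. Between MEK-inhibited and acute libraries limma called 0 of the 8, against 5.95% of all genes, 3.44% higher and 2.51% lower. At an unadjusted p under 0.05 there were 0 of the 8, against 18.9% of all genes. Without trend or robust moderation limma called 0 of the 8, against 3.02% of all genes.

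**Figure D3:**
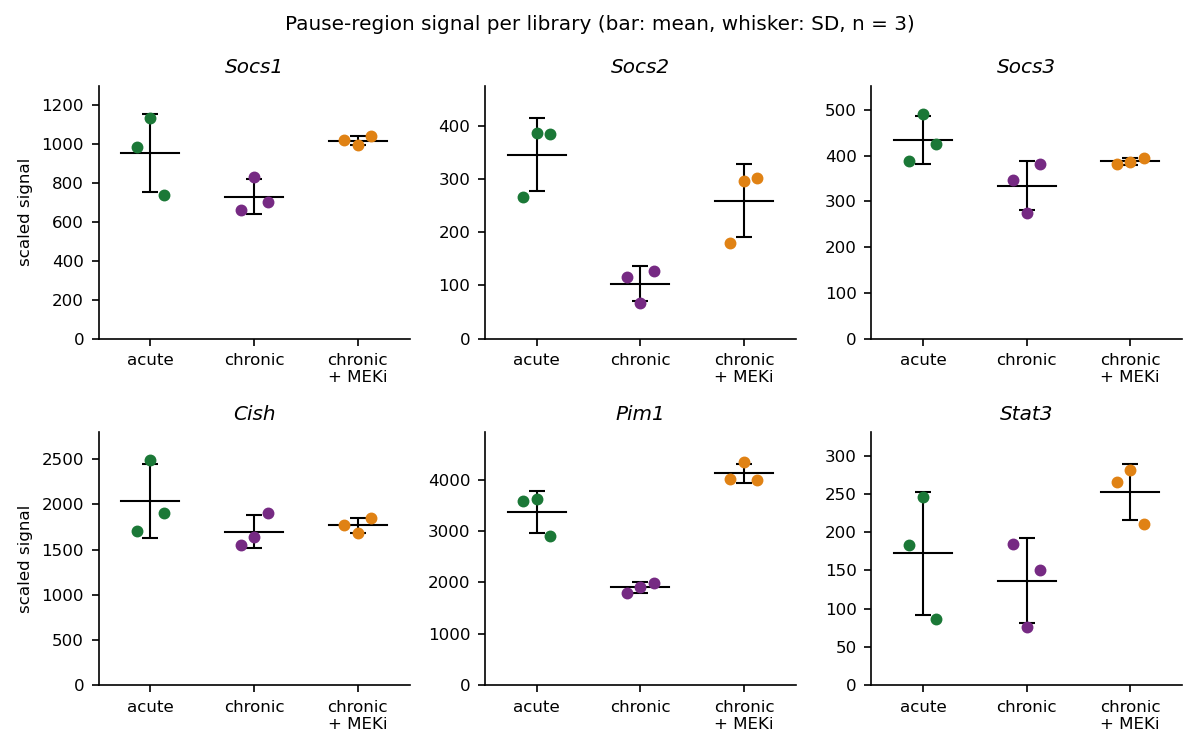
Scaled pause-region signal (vertical axis, from 0) of 6 genes in each library, with 3 points a group, the mean as a bar and the SD as a whisker. For Socs2 and Pim1 the 3 chronic libraries lie below all others, while for Socs3 and Cish the chronic and MEK-inhibited libraries overlap.

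The balance of pause region to gene body, as the difference of their log2 values in a library, was tested for the same 8 genes among 7413. Limma called 0 of the 8 in each comparison, as it called 0% of all genes, and 0 without trend or robust moderation. At an unadjusted p under 0.05 there was 1 of the 8 in chronic minus acute, 0 in MEK-inhibited minus chronic and 1 in MEK-inhibited minus acute, against 10.1%, 5.31% and 7.97% of all genes, which is near that background. The first was Socs2 (-0.83, adjusted p = 0.408) and the last Jak1 (0.86, adjusted p = 0.605).

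Each gene has several annotated transcripts in the tables, which share much of their signal and are not replicates. Among those with a mean scaled gene-body signal of at least 200, the difference between chronic and acute ranged from -1.78 to -0.63 over 12 Socs2 transcripts, from -0.99 to -0.58 over 7 of Pim1, from -0.70 to -0.50 over 7 of Jak1 and from -0.60 to -0.59 over 3 of Stat4. Stat3 took both signs, from -0.22 to 0.25 over 9 transcripts. For MEK-inhibited minus chronic libraries, the Socs2 transcripts ranged from 0.65 to 1.02, those of Pim1 from 0.82 to 0.98 and those of Stat3 from 0.26 to 0.72. Cish ranged from -0.42 to -0.23 over 5 transcripts in chronic minus acute and from 0.25 to 0.35 in MEK-inhibited minus chronic.

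The Socs2 transcripts that run farther downstream than its coding ones had the most negative values. The transcript annotated for nonsense-mediated decay, spanning chr10:95385362-95413109, had 1675 ± 90.6 in acute libraries, 540.0 ± 155 (SD, n = 3) in chronic and 930.2 ± 98.3 in MEK-inhibited libraries. Its difference between chronic and acute was -1.66, and that of 2 noncoding ones, ending at 95388354 and 95401336, was -1.78 and -1.51. With the longest Socs2 transcript in place of the one with the most signal, the gene was also called lower in MEK-inhibited than in acute libraries (-0.85, adjusted p = 0.0012). Pause-region values of Cish likewise differed with the annotated start. At the starts at 107296907 and 107296912, they were 4375 ± 134 in acute, 2963 ± 170.4 in chronic and 3292 ± 120 in MEK-inhibited libraries. At that of the transcript used, 107296710, they were 2035 ± 409, 1698 ± 186 and 1770.4 ± 83.8. These transcripts were singled out after their values were seen and were not tested.

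**Figure D4:**
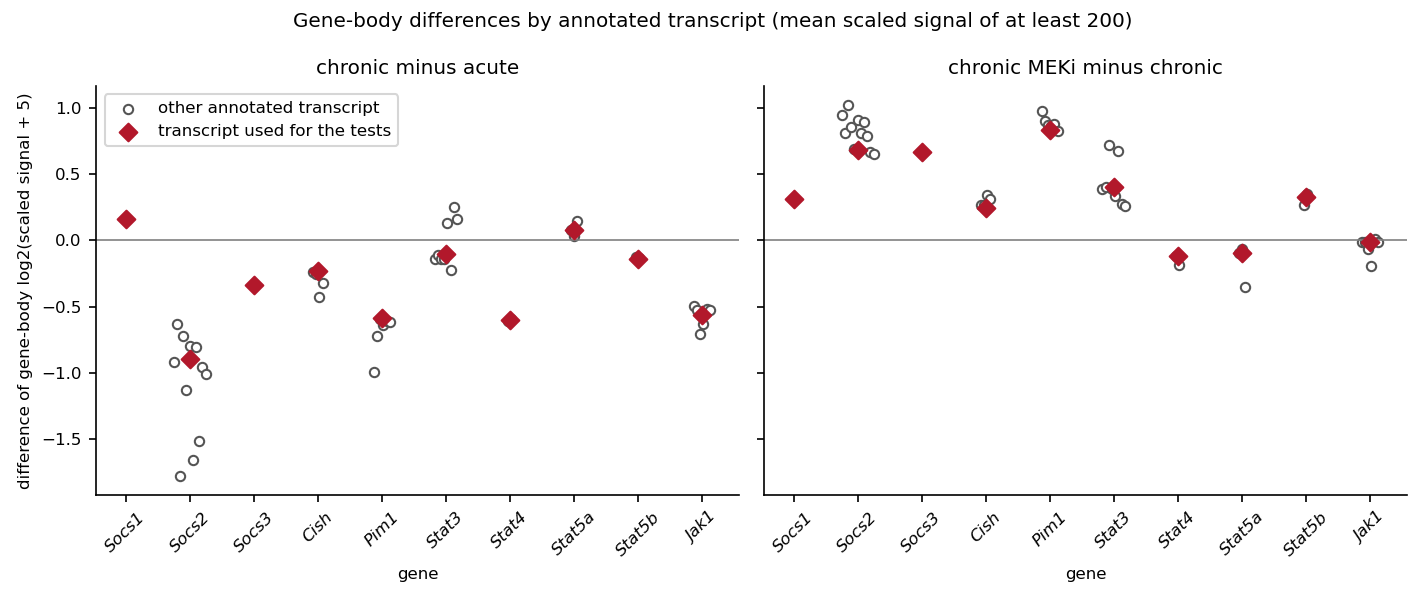
Difference of gene-body log2(scaled signal + 5) (vertical axis) for each annotated transcript with a mean scaled signal of at least 200, by gene, for chronic minus acute (left) and MEK-inhibited minus chronic (right). Red diamonds are the transcripts used for the tests. The Socs2 transcripts spread from -1.78 to -0.63 on the left, while those of Jak1 and Stat4 stay close together.

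The genes whose pattern over the 9 libraries was most like that of a member were sought among 9492 genes, by the root mean square difference of centred log2 values. For Cish they were Ppp1cc (0.056), Nelfa (0.058) and Tpm3 (0.069), where the pattern of Cish itself has a root mean square of 0.153. For Socs1 they were Zbtb45 (0.086), Lrp10 (0.087) and Hist1h1e (0.122), against 0.296 for Socs1 itself. For Socs3 they were Mknk2 (0.140), H2-D1 (0.143) and Isoc1 (0.146), against 0.345. The measure takes in differences between libraries of a group as well as those between groups. Cish and Socs1 were called in none of the gene-body comparisons. Mknk2 had 4475 ± 1017 in acute libraries (SD, n = 3), 3662 ± 130.0 in chronic and 5558 ± 241 in MEK-inhibited libraries, and H2-D1, a class I major histocompatibility gene, had 8432 ± 1619, 6401 ± 517 and 9941 ± 736.

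The rest of the pathway was counted over lists of textbook membership. Where a rise and a fall of a gene are given together, the first is for chronic minus acute and the second for MEK-inhibited minus chronic. Stat2, which carries the type I interferon signal, had 2945 ± 399 in acute, 1766 ± 37.8 in chronic and 3604 ± 337 in MEK-inhibited libraries. It fell by 0.73 (SE 0.11, adjusted p = 4.90e-05) and rose by 1.02 (SE 0.11, adjusted p = 2.23e-06). All chronic libraries of Stat2 lay below all others.

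Of 9 other inhibitors of the pathway, 2 were called higher and 4 lower under chronic stimulation (18.0% and 15.9% of all genes), 3 higher and 0 lower with MEK inhibition relative to chronic (9.93% and 7.65%), and 1 higher and 0 lower in MEK-inhibited than in acute libraries (14.4% and 11.5%). Ptpn1, a phosphatase that acts on JAKs, had 14447 ± 1536 in acute, 6998 ± 1001 in chronic and 14079.5 ± 539 in MEK-inhibited libraries. It fell by 1.05 (SE 0.11, adjusted p = 3.40e-07) and rose by 1.02 (SE 0.11, adjusted p = 1.27e-06). Library totals left 0 of these genes higher and 7 lower under chronic stimulation and 1 higher and 6 lower in MEK-inhibited than in acute libraries. All genes were then called in either direction at 49.8% and 37.1%. Limma without trend or robust moderation left 0 higher and 4 lower under chronic stimulation, against 29.7% of all genes called. The 2 called higher, Pias3 and Pias4, were not called without acute replicate 1, acute replicate 3 or chronic replicate 3, and Pias3 not without chronic replicate 1. Of the other 4 SOCS genes, 1 was called lower under chronic stimulation (Socs5, -0.73, SE 0.20, adjusted p = 0.00724), 1 higher with MEK inhibition relative to chronic, and 1 higher in MEK-inhibited than in acute libraries. The shares of all genes called in these directions were 15.9%, 9.93% and 14.4%. With library totals all 4 were called lower under chronic stimulation, against 49.8% of all genes called in either direction. Socs5 was also the gene of the second call (0.62, adjusted p = 0.0354), which was lost on leaving out any 1 of 7 libraries, and Socs7 that of the third (0.37), which was -0.0080 with library totals. Pim3, the other PIM kinase gene tested, moved the other way from Pim1 between chronic and acute libraries, with 1759.9 ± 391 in acute, 3595 ± 383 in chronic and 2471 ± 518 in MEK-inhibited libraries. Its rise under chronic stimulation was 1.05 (SE 0.16, adjusted p = 8.87e-05).

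Of 17 receptor chains that signal to STATs, 4 were called higher and 10 lower under chronic stimulation, 10 higher and 4 lower with MEK inhibition relative to chronic, and 6 higher and 3 lower in MEK-inhibited than in acute libraries. Over all genes the shares were 18.0% and 15.9%, 9.93% and 7.65%, and 14.4% and 11.5% in the same order. Library totals gave 2 higher and 12 lower, 10 higher and 2 lower, and 1 higher and 10 lower in the same order. With those totals limma called 49.8%, 15.7% and 37.1% of all genes in either direction. Ifngr2, a chain of the interferon gamma receptor, had 2699.6 ± 349 in acute, 392 ± 5.81 in chronic and 2092 ± 342 in MEK-inhibited libraries. It fell by 2.76 (SE 0.14) and rose by 2.39 (SE 0.14). Il7r, the interleukin-7 receptor chain that signals to STAT5, had 6828 ± 527, 12548 ± 422 and 6217 ± 382, so that it rose by 0.88 (SE 0.09, adjusted p = 2.87e-07) and fell by 1.01 (SE 0.09, adjusted p = 1.23e-07). Il12rb2, a chain of the interleukin-12 receptor upstream of STAT4, rose by 1.06 under chronic stimulation (SE 0.10, adjusted p = 1.66e-07), where Stat4 itself fell.

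Of 13 genes described as STAT5 targets in T cells, 4 were called higher and 5 lower under chronic stimulation, 3 higher and 4 lower with MEK inhibition relative to chronic, and 4 higher and 7 lower in MEK-inhibited than in acute libraries. For all genes these calls made up 18.0% and 15.9%, 9.93% and 7.65%, and 14.4% and 11.5%. The direction in which STAT5 acts on each target was not used, so the counts do not measure STAT5 activity. The median differences of the 13 genes were -0.18, -0.05 and -0.55, against -0.02, 0.04 and 0.003 over all genes. Library totals gave 2 higher and 9 lower under chronic stimulation, against 49.8% of all genes called in either direction. The 3 called higher with MEK inhibition relative to chronic became 2 without any 1 of the chronic libraries. They became 1 without MEK-inhibited replicate 1 or 3, with limma without trend or robust moderation and with the trimmed mean over all genes with signal. Across these settings 13.4% to 16.9% of all genes were called in either direction. Bcl2, an inhibitor of cell death, had 107320.0 ± 3913 in acute and 54445 ± 7483 in chronic libraries and fell by 0.99 (SE 0.10, adjusted p = 2.81e-07). Prf1, which encodes perforin, had 91.3 ± 17.7, 2208 ± 388 and 329.9 ± 39.7 in acute, chronic and MEK-inhibited libraries, so that it rose by 4.52 (SE 0.21) and fell by 2.72 (SE 0.21). Osm, a cytokine gene induced by STAT5, rose by 0.83 with MEK inhibition relative to chronic (SE 0.10, adjusted p = 1.21e-05).

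**Figure D5:**
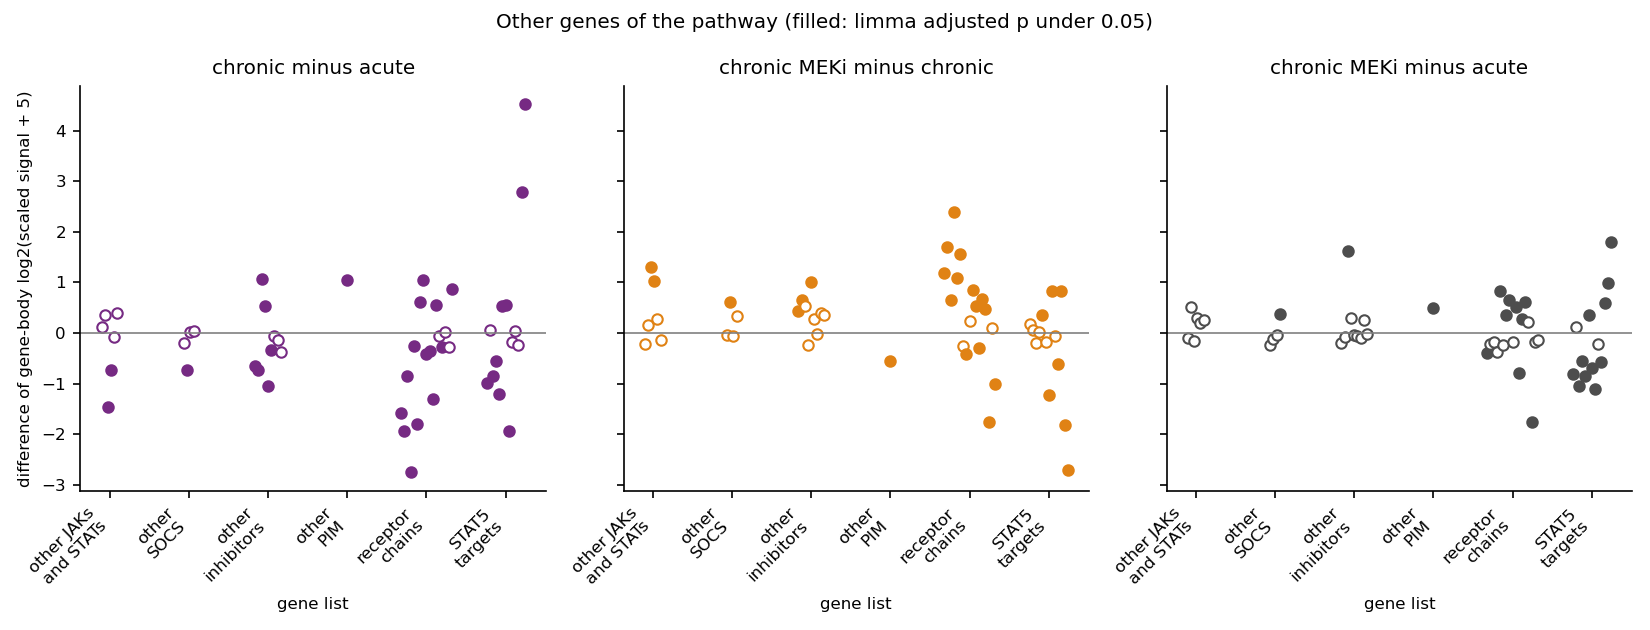
Difference of gene-body log2(scaled signal + 5) (vertical axis) of each gene of the 6 other lists (horizontal axis) in the 3 comparisons, with filled symbols at limma adjusted p under 0.05. Receptor chains spread from -2.76 to 1.06 in chronic minus acute, and the STAT5 targets reach 4.52 for Prf1.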

How the data were processed

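Nascent RNA of 9 libraries in 3 groups was analysed from 2 tables of signal per transcript (gene body and pause region), deposited by the authors. The submitters' processing notes name FastQC 0.12.0, Trim Galore 0.6.10, STAR 2.7.0a, SAMtools 1.19.2, deepTools 0.1.9, R 4.1.2 and mm10, without roles. The regions' coordinates and the use of strand are not given in the sources used here. Low values were whole multiples of a step of 0.764 to 1.06 per library (tolerance 0.01), and 4 steps were more frequent than 1. Whether a step stands for a read could not be decided from this. The deposited signal was modelled as signal, although the written design had allowed for a count model. Of 118482 rows, 117346 matched GENCODE M21 (GRCm38) with their version, 383 without it and 753 not at all. Matched rows lay on the autosomes, so Pim2 and Il2rg were not analysed here.

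Genes needed a signal of 50 in 3 libraries. Scaling used the trimmed mean, without weights, of log ratios over those genes (30% of log ratios and 5% of levels trimmed). Limma 3.58.1 in R 4.3.3 was fitted to log2(scaled signal + 5) of all 9 libraries, with a mean per group, an intensity trend, robust moderation and Benjamini-Hochberg adjustment over all genes of a table. Python 3.11.15 with pandas 2.3.3 did the joins, and the fitting script was tested on simulated data. Named genes were the 10 members, at most 3 called rises and 3 called falls of each other list per comparison, and the 3 genes most like Cish, Socs1 and Socs3 with a mean signal of at least 200 and no Gm, Rik or LOC name. The members and lists were chosen with earlier results of these data known. Alternatives were other pseudocounts, filters and scalings, limma without trend or robust moderation, a replicate block, the longest transcript and leaving out each library. Some items of the lists are not reported here.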

Additional observations from a re-analysis of the deposited data

How the results depend on the processing

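The falls of Socs2, Stat4, Pim1 and Jak1 under chronic stimulation, the rises of Socs2 and Pim1 with MEK inhibition relative to chronic, and the lower Stat4 and Jak1 in MEK-inhibited than in acute libraries kept their direction and call in the gene body under all 20 alternatives. Scaling changed the counts most. Between chronic and acute, library totals gave 9 calls, the deposited scale 9 and totals that omit ribosomal RNA-like rows 8, all lower, against 49.8%, 49.2% and 36.7% of all genes called, and totals gave 5 in the pause region, against 22.4%. Between MEK-inhibited and acute libraries, 5 were called with totals, all lower, against 37.1% of all genes called. A trimmed mean over all genes with signal, chosen after seeing the data, left 3 between MEK-inhibited and chronic libraries, against 13.9% of all genes. Limma without trend or robust moderation also left 3 there, against 13.4%. In the pause region it left 1 in chronic minus acute, against 7.24%, and 1 in MEK-inhibited minus chronic, against 1.43%. Leaving out 1 library gave 4 to 5, 4 to 5 and 2 to 5 genes in the gene body for chronic minus acute, MEK-inhibited minus chronic and MEK-inhibited minus acute (5 without acute replicate 2), and 2, 1 to 2 and 0 in the pause region.

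The following differences changed sign, and the cause was not tested. With library totals these were Socs1 (-0.33) and Stat5a (-0.41) for chronic minus acute, and Stat5a (0.013) and Jak1 (0.098) for MEK-inhibited minus chronic. For MEK-inhibited minus acute they were Socs3 (-0.055), Cish (-0.37), Stat3 (-0.082), Stat5b (-0.20) and Pim1 (-0.13), with Socs1 (-0.23) and Pim1 (-0.049) in the pause region. On the deposited scale they were, in the same order of comparisons, Socs1 (-0.31) and Stat5a (-0.40), then Stat4 (0.012), Stat5a (0.037) and Jak1 (0.12), then Socs3 (-0.014), Cish (-0.33), Stat3 (-0.042), Stat5b (-0.16) and Pim1 (-0.092). Totals that omit the ribosomal RNA-like rows gave -0.083 for Stat5a in chronic minus acute and -0.15 for Cish in MEK-inhibited minus acute, and the trimmed mean over all genes gave -0.045 for the latter. Leaving out 1 library at a time gave -0.11 to 0.076 for Cish, -0.11 to 0.017 for Stat5a and -0.063 to 0.24 for Socs1 in the pause region, all in MEK-inhibited minus acute, and -0.10 to 0.036 for Jak1 in MEK-inhibited minus chronic. Without acute replicate 2, Socs3 was called higher in MEK-inhibited than in acute libraries (0.44, adjusted p = 0.0452), and Socs1 was called there with a minimum signal of 200 (adjusted p = 0.0492).

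Whether the replicate numbers pair the libraries could not be decided from correlations of values centred on 3 libraries a group. Between acute and chronic libraries they were 0.075 to 0.098 for the same number and -0.077 to -0.012 for different ones. With MEK-inhibited libraries they were -0.53 to 0.091 for the same number and -0.37 to 0.51 for different ones. A replicate block gave 5, 5 and 4 genes in the gene body, adding Cish in chronic minus acute (adjusted p = 0.0447) and Pim1 in MEK-inhibited minus acute (adjusted p = 0.0261), and 2, 2 and 0 in the pause region. With it 34.5%, 18.5% and 26.7% of all genes were called in the gene body and 11.3%, 3.39% and 6.69% in the pause region. Depth in reads is unknown, so differences of weak pause-region signals, such as those of Jak1 and Stat5b, carry an unknown counting error.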

Other observations

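Pause-region values of Stat5a differed with the annotated start. At the starts at 100860484 and 100860485 acute libraries had 16.1 ± 17 (SD, n = 3), against 67.9 ± 7.54 in chronic and 27.7 ± 12.1 in MEK-inhibited libraries, while at the start of the transcript used, 100859351, group means reached at most 2.54. These values are low, were singled out after they were seen and were not tested.

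Of the 8 genes listed as CD8 T cell markers, which include general T cell genes, 0 were called higher and 5 lower under chronic stimulation (18.0% and 15.9% of all genes). With MEK inhibition relative to chronic, 3 were called higher and 1 lower (9.93% and 7.65%). The 1 lower was Cd5 (-0.57, SE 0.13, adjusted p = 0.00332). Cd8a had 4061 ± 361 in acute, 968 ± 179 in chronic and 2881 ± 262 in MEK-inhibited libraries, so that it fell by 2.07 (SE 0.13, adjusted p = 5.65e-10) and rose by 1.58 (SE 0.13, adjusted p = 6.14e-08). Among genes described as STAT5 targets, Prdm1, which encodes BLIMP1, had 335 ± 7.01, 2380.4 ± 366 and 669.6 ± 64.7 in the same order, so that it rose by 2.80 (SE 0.15) and fell by 1.81 (SE 0.15). Lta, which encodes lymphotoxin alpha, fell by 1.94 under chronic stimulation (SE 0.20, adjusted p = 3.05e-05), from 11548 ± 3617 to 2926 ± 425.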
